A study of Mus musculus with 2 samples.

Results

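miR-22 is made from the mouse gene Mir22, 1 of 1178 miRNA hairpins to which the reads of these libraries were matched. Its members were the sequenced tags (distinct read sequences of 18 to 30 nt) that equal a stretch of the Mir22 hairpin, directly or after removal of 1 to 3 nt from the 3′ end. There were 43 such tags, 26 of the 758783 tags in Ia_low and 39 of the 1185709 tags in Ia_high, and 22 occurred in both libraries. None of the 43 also fitted another miRNA hairpin. The study sequenced small RNA from spleen cells of C57BL/6J mice, enriched on CD11c beads, stained for the MHC class II molecule Ia and sorted into a CD11c+ Ia low population (Ia_low) and a CD11c+ Ia high population (Ia_high). The labels call both populations dendritic cells and name no treatment or genetic change. There was 1 library per population, so no test between populations could be made, no p-value is given, and exact 95% intervals cover counting error only.

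miRNAs are short RNAs that guide Argonaute proteins to messenger RNAs, mostly through pairing of bases 2 to 8, the seed, with sites in the 3′ untranslated region (UTR). A primary transcript is cut by Drosha into a hairpin and the hairpin by Dicer into a duplex, from which usually 1 strand is kept. miR-22 is a conserved vertebrate miRNA that is abundant in myeloid cells. In mouse it has been described as a regulator of Irf8, a transcription factor needed by dendritic cells, and of Tet2, a DNA demethylase of blood progenitors.

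The Mir22 hairpin lies on chromosome 11 of GRCm38, from 75463716 to 75463810 on the plus strand, in exon 2 of the noncoding host gene Mir22hg, which spans 75461539 to 75466676. The RefSeq sequences (build GRCm38.p6) are printed because the reads below differ from them by single bases at their ends. Capitals mark the seed in the mature forms and both mature arms in the hairpin.
miR-22-3p (chr11:75463772-75463793): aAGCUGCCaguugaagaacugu
miR-22-5p (chr11:75463734-75463755): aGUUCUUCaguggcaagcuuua
Mir22 hairpin: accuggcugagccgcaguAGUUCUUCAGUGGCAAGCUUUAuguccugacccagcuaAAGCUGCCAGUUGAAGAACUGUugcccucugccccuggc
Of the 1679 mature mouse miRNAs in that table, none besides miR-22-3p carried its seed, and none besides miR-22-5p carried the seed of the 5p arm.

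Total depth was 13739811 reads in Ia_low and 16388303 in Ia_high. Of these, 85.7% in Ia_low and 98.4% in Ia_high were 18 to 30 nt long. Reads that matched a miRNA arm without mismatch numbered 2690905 in Ia_low, 19.6% of its reads, and 5846371 in Ia_high, 35.7% of its reads. Levels below are CPM, reads of an arm per 1000000 such miRNA reads. Fragments of mRNA in the same libraries gave a check of the cell labels. The 8 dendritic cell genes of the marker list (among them Itgax, Flt3, Zbtb46 and the Ia genes) were detected in both libraries, with 7836 fragments per 1000000 mRNA fragments in Ia_low and 14857 in Ia_high, and 6 of the 8 met the 2-fold call described below as lower in Ia_low. Over all 6938 protein-coding genes with 10 distinct fragments or more, 6.33% met that call as higher in Ia_low and 8.5% as lower. Zbtb46 and Flt3, which mark conventional dendritic cells, had 1 and 6 fragments in Ia_low, against 56 and 163 in Ia_high. The 10 genes of Ly6C-low monocytes summed to 13735 in Ia_low and 5269 in Ia_high on the same scale, with 9 of 10 called higher in Ia_low, and 6 Ly6C-high monocyte genes to 799 and 399. The 9 genes of the cDC1 list (dendritic cells that cross-present antigen) summed to 1282 in Ia_low and 4939 in Ia_high, 7 of the 8 measured ones called lower in Ia_low, with Xcr1, Cadm1, Batf3 and Tlr3 at 0 in Ia_low, and the 7 cDC2 genes to 1282 and 1407. Of the cDC2 genes, 2 were called lower in Ia_low and none higher, Sirpa had 1063 in Ia_low and 705 in Ia_high, and Clec4a4, Mgl2 and Esam had 0 fragments in Ia_low against 5, 2 and 11 in Ia_high. No gene of the 8-gene dendritic cell list or of the Ly6C-low and Ly6C-high monocyte lists was at 0 in either library. The T cell markers Cd3e, Cd3g and Lck were at 0 in both libraries, while the 6 T cell genes, which include Cd4 and Cd8a, summed to 15.1 in Ia_low and 705 in Ia_high. B cell genes summed to 30.2 in Ia_low and 90.5 in Ia_high, and plasma cell genes to 724 and 306. Macrophage genes summed to 754 in Ia_low and 1186 in Ia_high, with 3 called lower, but Adgre1 had 528 and 321. The neutrophil genes summed to 354 in Ia_low and 90.5 in Ia_high. Csf3r held 36 of their 47 fragments in Ia_low and 15 of 29 in Ia_high, and S100a8, S100a9 and Ly6g had 3 or fewer in each library. NK cell genes summed to 60.3 in Ia_low and 46.8 in Ia_high, plasmacytoid dendritic cell genes to 392 and 421 and erythroid genes to 0 and 6.24. The plasmacytoid genes went in both directions, with 1 called higher in Ia_low and 2 lower. Runx2 had 226 in Ia_low and 93.6 in Ia_high, while Tcf4 had 90.5 and 193 and Spib 7.54 and 68.6.

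miR-22-3p was among the most abundant miRNAs of both libraries. It had 67959 reads, or 25255 CPM, in Ia_low, and 104451 reads, or 17866 CPM, in Ia_high. By these reads, which matched without mismatch, it was the 8th and the 12th most abundant miRNA arm. It took 2.53% of such miRNA reads in Ia_low and 1.79% in Ia_high. With reads that carry 1 to 3 unmatched 3′ bases added, it had 68685 of 3642796 miRNA reads in Ia_low and 105784 of 7402351 in Ia_high, which are smaller shares. The ratio of Ia_low over Ia_high was 1.41 (counting interval 1.40 to 1.43), a log2 ratio of 0.50. Tags read more than once had most often been read 9 times in Ia_low and 4 times in Ia_high, and with counts divided by these numbers the interval was 1.38 to 1.45.

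A 2-fold ratio with a counting interval that excludes 1 was the size at which an arm was called different. miR-22-3p did not reach it. Among the 238 arms with a mean level of at least 10 CPM, 8.82% were called higher and 32.8% lower in Ia_low. The log2 ratio of miR-22-3p ranked 44th from the top among these 238, whose median was -0.39, and 8th among the 54 arms with a mean level of at least 1000 CPM, whose median was -0.24. The direction depended on the scaling. Per read of the whole library, miR-22-3p stood at a ratio of 0.776, since miRNA reads were a smaller share of Ia_low, and after centring on the median ratio of the 238 arms it stood at 1.86. For this reason no direction is given for its level. Beside this ratio stand the summed Ly6C-low monocyte genes, 13735 in Ia_low and 5269 in Ia_high, and the summed cDC1 genes, 1282 and 4939. The other marker lists that differed are given above, and the part of any list in the ratio was not tested. In sorted populations, fewer cells of a type and less miRNA per cell cannot be told apart.

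**Figure D1:**
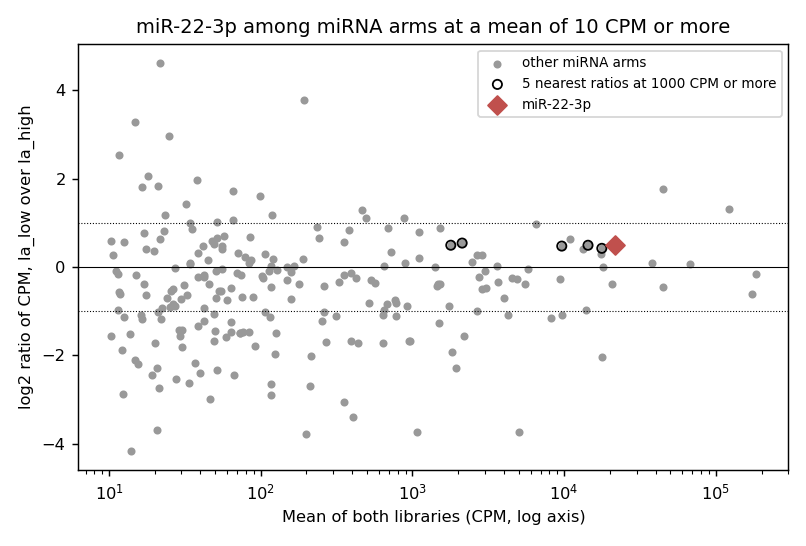
Each point is 1 miRNA arm, with its mean level in both libraries (CPM, log axis) against its log2 ratio of Ia_low over Ia_high, for the arms among the 238 that had reads in both libraries. Dotted lines mark a 2-fold ratio. miR-22-3p (diamond, log2 ratio 0.50) lies at the abundant end, between the zero line and the upper dotted line, and open circles mark the 5 arms named for the nearest ratios.

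**Figure D2:**
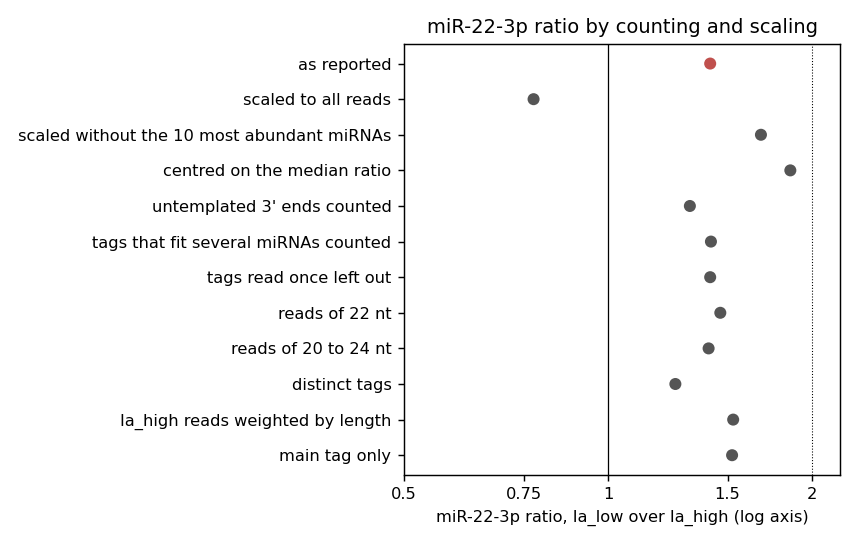
The ratio of miR-22-3p in Ia_low over Ia_high is given on a log axis for the reported counting (red) and for other ways of counting and scaling (grey). Scaling to all reads gave 0.776, left of the line at 1, and the other settings lay between 1.26 and 1.86, right of it and short of the dotted line at 2.

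Near miR-22-3p in level stood different miRNAs in each library. In Ia_low the next above was miR-191-5p with 37937 CPM and the next below miR-16-5p with 20274 CPM, so miR-22-3p had 1.25 times the level of miR-16-5p. In Ia_high the next above was miR-26a-5p with 17952 CPM, a level that miR-22-3p matched to a ratio of 0.995, and the next below was miR-92a-3p with 15739 CPM. These places count only reads that matched without mismatch. With reads that carry 1 to 3 unmatched 3′ bases added, miR-92a-3p had 555536 reads in Ia_low and 710738 in Ia_high. On that count miR-22-3p had 68685 and 105784, so miR-92a-3p stood above it in both libraries. With 2 libraries, likeness of pattern can only mean a near equal log2 ratio. By that measure the 5 nearest arms with a mean level of at least 1000 CPM were the 5p arm of Mir30c-1 (0.49), miR-146a-5p (0.49), miR-423-5p (0.47), miR-342-3p (0.54) and miR-16-5p (0.42).

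Nearly all reads of the hairpin came from the 3p arm. miR-22-5p had 13 reads in Ia_low and 15 in Ia_high, 4.83 and 2.57 CPM, against 67959 and 104451 reads of the 3p arm. There were thus 5228 reads of the 3p arm for each read of the 5p arm in Ia_low and 6963 in Ia_high. The 5p share of hairpin reads was 0.0191% in Ia_low (interval 0.0102 to 0.0327) and 0.0144% in Ia_high (0.00804 to 0.0237), and these intervals overlapped. The 5p reads were a single templated tag in each library, the full 22 nt form in Ia_low and a form 1 nt shorter in Ia_high, where 3 more reads carried an added A. Beside these 9 and 4 reads per tag, the 5p counts stand for few molecules, and no difference of the 5p arm was detectable at this depth (ratio 1.88, counting interval 0.825 to 4.24). Among hairpins with 10000 reads or more, 11 of 27 in Ia_low and 12 of 44 in Ia_high had a smaller minor arm share than Mir22.

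A few 3p forms made up the arm. They are shown as sequenced, with T for U and the seed of each form in capitals, because they differ in 3′ end, added base or seed.
22 nt, the mature form: aAGCTGCCagttgaagaactgt
21 nt, 1 nt shorter: aAGCTGCCagttgaagaactg
20 nt, 2 nt shorter: aAGCTGCCagttgaagaact
23 nt, next hairpin base: aAGCTGCCagttgaagaactgtt
23 nt, added A: aAGCTGCCagttgaagaactgta
21 nt, start 1 nt later: aGCTGCCAgttgaagaactgt

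The mature form of 22 nt had 58644 reads in Ia_low and 83673 in Ia_high, 86.3% (interval 86.0 to 86.6) and 80.1% (79.9 to 80.3) of the templated 3p reads, that is, of reads without an untemplated end. The 21 nt form had 8891 and 19108 reads, and with the later start included, reads of 21 nt were 13.1% in Ia_low and 18.5% in Ia_high. Reads of 20 nt were 0.394% in Ia_low (0.349 to 0.444) and 1.15% in Ia_high (1.08 to 1.21). Reads of 20 and 21 nt were thus smaller shares in Ia_low, and their intervals stayed apart also with counts divided by 9 and 4 reads per tag. Reads of 19 nt, 25 in Ia_low and 95 in Ia_high, were 0.0368% and 0.091%, and their intervals overlapped after that division. Reads of 18 nt numbered 8 in Ia_low and 3 in Ia_high, each from 1 tag that the other library did not hold. The 23 nt form that reads on into the hairpin had 86 and 187 reads, 0.127% and 0.179%.

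Because of this shift, the ratio of miR-22-3p differed by form. For reads of 22 nt the CPM ratio of Ia_low over Ia_high was 1.52 (1.51 to 1.54), for 21 nt it was 1.01 (0.981 to 1.03), and for 20 nt it was 0.486 (0.424 to 0.556). Most miRNAs shared the direction of the shift. Over the 76 arms with 1000 templated reads or more in each library, miR-22-3p included, the share of reads under 22 nt was lower in Ia_low for 70, with a median difference of -3.54 percentage points, against -6.12 for miR-22-3p. Mean read length was 21.86 nt in Ia_low and 21.79 nt in Ia_high for miR-22-3p, a difference of 0.0689 nt, which was under the median difference of 0.130 nt over the 76 arms. With Ia_high reads weighted for the length difference seen over all miRNAs, the ratio of miR-22-3p was 1.53. The libraries also differed in size range, with 85.7% of all Ia_low reads and 98.4% of all Ia_high reads at 18 to 30 nt. The part of this in the shift was not tested.

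**Figure D3:**
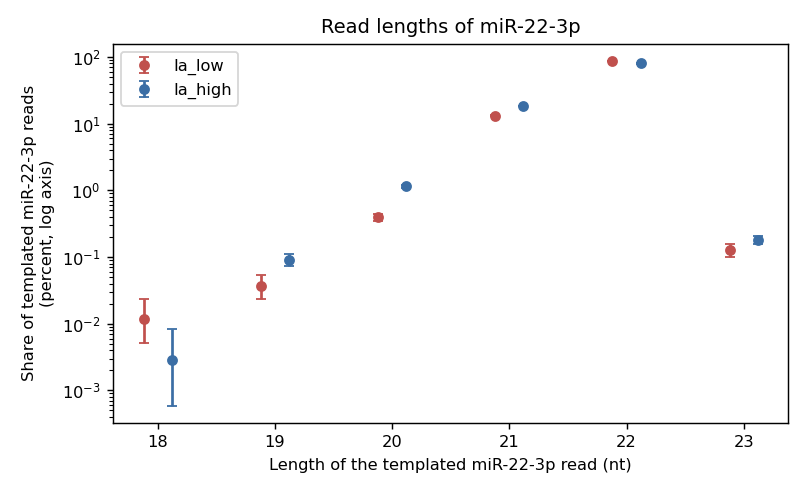
Share of templated miR-22-3p reads at each length (percent, log axis) in Ia_low (red) and Ia_high (blue), with exact 95% intervals for counting error. The 22 nt form takes 86.3% in Ia_low and 80.1% in Ia_high, and the blue points lie above the red ones at 19, 20, 21 and 23 nt.

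The 5′ end, which sets the seed, was fixed in nearly every read. In Ia_low 99.9% of templated 3p reads (67922 of 67959) began at the mature start, and in Ia_high 99.8% (104222 of 104451). Reads that began 1 nt later numbered 37 in Ia_low and 219 in Ia_high, 5.44 and 21.0 per 10000 templated reads, so this form was rarer in Ia_low (CPM ratio 0.367, counting interval 0.252 to 0.522, and 0.0936 to 0.963 with counts divided by reads per tag). In Ia_low they were 1 tag, and in Ia_high 3 tags with 174, 38 and 7 reads. The seed of the later start, GCUGCCA, is that of miR-3966 in the RefSeq table. Earlier starts had 0 reads in Ia_low and 7 reads, 0.0067%, in Ia_high. The interval in Ia_low reached up to 0.00543%, and up to 0.0488% with counts divided by reads per tag, which holds the Ia_high share. Over the 76 arms the median share of reads at the main start was 99.6% in Ia_low and 99.3% in Ia_high.

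miR-22-3p carried very few untemplated 3′ ends. Cells add bases to the 3′ ends of miRNAs, mostly A or U, through terminal nucleotidyl transferases. Of all 3p reads, 726 of 68685 in Ia_low, 1.06% (0.982 to 1.14), and 1333 of 105784 in Ia_high, 1.26% (1.19 to 1.33), had 1 to 3 bases that the hairpin does not encode. Over the 76 arms the median was 17.6% in Ia_low and 15.3% in Ia_high, and in each library 74 arms had a larger share and 1 a smaller one. That 1 arm was the 3p side of mir-3535, for which 36.5% of reads in Ia_low and 29.2% in Ia_high began at its main start. The tailed share was higher in Ia_low for 56 of the 76 arms and lower for 20, and miR-22-3p was among the 20, with a difference of -0.203 percentage points. The intervals above did not overlap, but those from counts divided by 9 and 4 reads per tag did, with 0.844 to 1.32 in Ia_low and 1.13 to 1.40 in Ia_high.

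**Figure D4:**
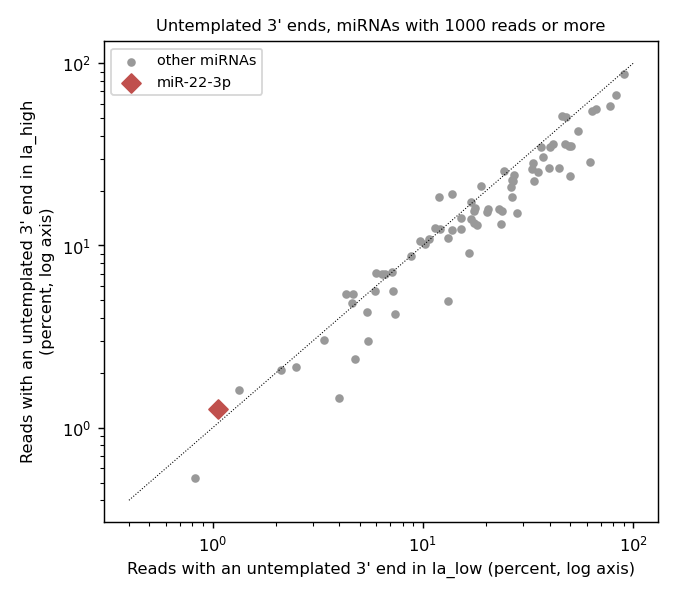
Each point is 1 of 76 miRNA arms with 1000 templated reads or more in each library, with its share of reads that carry an untemplated 3′ end in Ia_low and in Ia_high (percent, log axes, dotted line at equal shares). miR-22-3p (diamond, 1.06% and 1.26%) lies at the lower left, with 1 arm below it.

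The few tails were mostly a single A. One untemplated A ended 520 reads in Ia_low and 998 in Ia_high, 0.757% and 0.943% of 3p reads and 80.5% and 84.2% of the reads with 1 untemplated base. Its main form was the full mature sequence plus A, with 430 reads in Ia_low and 886 in Ia_high. Among 23 nt reads that start at the mature start, this A stood in 83.3% of reads in Ia_low (79.8 to 86.4) and 82.6% in Ia_high (80.2 to 84.8), against 16.7% and 17.4% with the T that the hairpin encodes there. A single untemplated T, the base as which an added U is sequenced, ended 0.0189% of 3p reads in both libraries, while the median over the 76 arms was 5.26% in Ia_low and 3.20% in Ia_high. A U added after base 21 or base 22 would equal the hairpin base and cannot be told from a templated read, so these shares do not count it. Some ends counted as untemplated are single base differences close to the end of a read of unchanged length. Ends of 2 or 3 bases whose last base is the hairpin base made up 9.64% of the untemplated ends in Ia_low and 7.88% in Ia_high. Those shares leave out 22 nt reads with another base at position 22, which count as 1 untemplated base after base 21. Such a read cannot be told from one with a base difference. With A there were 76 in Ia_low and 94 in Ia_high, with G 86 and 130, and with C 25 and 35.

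The host transcript left few fragments. Outside the hairpin, 10 distinct fragments in Ia_low and 14 in Ia_high matched Mir22hg and no other gene, 75.4 and 43.7 per 1000000 mRNA fragments. The ratio was 1.73 with a counting interval of 0.686 to 4.18, which includes 1. Counted as reads, with repeated copies of a tag included, there were 151 in Ia_low and 76 in Ia_high. The ratio of 2.48 (1.87 to 3.32) met the 2-fold call as higher in Ia_low, so the call depended on the counting. That interval takes each read as a separate count and was not widened for reads per tag. By reads, 11.5% of the 6938 measured protein-coding genes were called higher in Ia_low and 20.4% lower. Of the Mir22hg tags, 2 occurred in both libraries.

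mRNAs with a site for the seed of miR-22-3p had a median ratio near that of all mRNAs. An 8-mer site is GGCAGCTA on the mRNA strand, the complement of bases 2 to 8 followed by A, and it contains both 7-mer sites, GGCAGCT and GCAGCTA. The longest annotated 3′ UTR of each of 21787 genes was searched on the mRNA strand, and 1.88% held an 8-mer site and 16.3% any of the 3 sites. Of the genes with 10 distinct mRNA fragments or more, 6.33% met the 2-fold call as higher in Ia_low and 8.5% as lower. Among the 179 such genes with an 8-mer site, 10 were called higher and 20 lower, 5.59% and 11.2%. Their median log2 ratio was -0.20, against -0.14 over all 6938 genes and -0.14 over the 5346 genes without a site. Over the 1590 genes with any site the median was -0.10. Genes with an 8-mer site had longer 3′ UTRs, with a median of 2938 nt against 1384 nt over all genes. Fragments are distinct short pieces of mRNA from the gel slice, each counted once, and measure neither the amount of whole mRNA nor protein. In Ia_low 132585 fragments came from 1645139 reads, and in Ia_high 320528 from 2055529. This difference was not corrected for beyond scaling to total fragments.

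**Figure D5:**
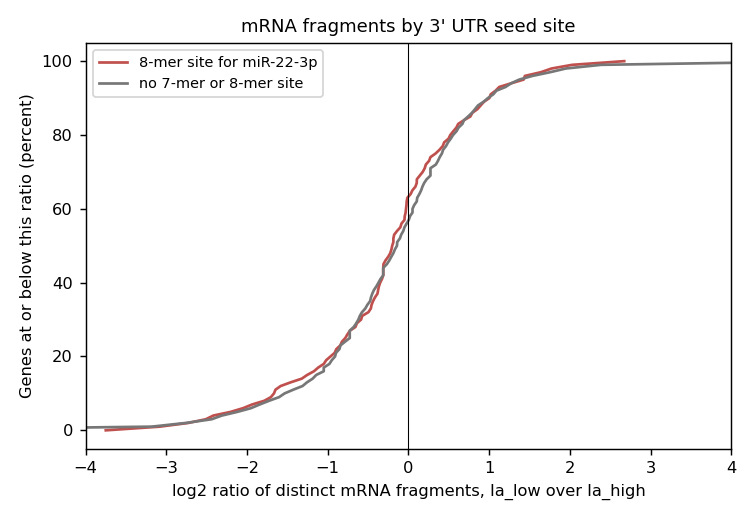
Cumulative share of genes (percent) by the log2 ratio of distinct mRNA fragments, Ia_low over Ia_high, for 179 genes with an 8-mer site for miR-22-3p in the 3′ UTR (red) and 5346 genes without a 7-mer or 8-mer site (grey). The curves run close together, with medians of -0.20 and -0.14.

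Among the 27 genes with an 8-mer site, 50 fragments or more and an interval that excluded 1, 13 had a ratio above 1 and 14 a ratio below 1. The highest ratio was that of Cyth3, an exchange factor for ARF proteins, with 66 fragments in Ia_low and 25 in Ia_high (ratio 6.38, 3.97 to 10.6). Socs3, an inhibitor of cytokine signalling, had 63 and 44 fragments (3.46, 2.32 to 5.21). Csf1r, the receptor of the macrophage growth factor and also a monocyte gene of the marker list, had 275 and 200 (3.32, 2.76 to 4.01). The retinoic acid receptor gene Rara had 65 and 57 (2.76, 1.90 to 4.01). At the other end stood Mycl, a MYC family transcription factor, with 2 fragments in Ia_low and 65 in Ia_high (ratio 0.0744, 0.00882 to 0.280). Icosl, the ligand of the T cell costimulator ICOS, had 8 and 98 (0.197, 0.0829 to 0.404). The chloride channel family gene Clic4 had 23 and 202 (0.275), the sialyltransferase gene St6gal1 8 and 63 (0.307) and the adhesion receptor gene Adgrg5 12 and 90 (0.322).

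A list of 18 reported targets of miR-22 was drawn up from general knowledge, with results of these data known. Of these genes, 11 had 10 fragments or more. In Ia_low 1 of the 11 was called higher and none lower, against 6.33% and 8.5% of all 6938 measured genes. With 11 genes, such counts cannot be told apart from those shares. The median log2 ratio of the 11 was -0.18, against -0.14 over all measured genes. Sites of 3 of the reported targets are shown, with up to 14 bases before each and the seed match in capitals. They are GRCm38 reference sequence in the direction of the mRNA. The 3′ UTR of Arrb1 held 6 matches to GGCAGCT, of which only the 8-mer site is printed.
Irf8 (chr8:120756215-120756235): gttacatgctccacGCAGCTA
Irf8 (chr8:120756312-120756332): cctgagggtccagaGCAGCTA
Tet2 (chr3:133465323-133465343): accgaaagagaataGGCAGCT
Arrb1 (chr7:99601592-99601613): taggtgacagttttGGCAGCTA

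Irf8, whose 3′ UTR held 2 of the 7-mer sites, had 49 fragments in Ia_low and 199 in Ia_high, 370 and 621 per 1000000 (ratio 0.595, 0.426 to 0.817), which did not reach 2-fold. By reads its ratio was 0.476 and met the call as lower, a count by which 11.5% of all measured genes met it as higher in Ia_low and 20.4% as lower. Irf8 is also a cDC1 gene of the marker list, and the part of that in its ratio was not tested. Arrb1, which encodes the receptor adaptor beta-arrestin 1, was the gene called higher, with 35 and 38 fragments, 264 per 1000000 in Ia_low and 119 in Ia_high (ratio 2.23, 1.37 to 3.62). Cdkn1a, the cell cycle inhibitor p21, had 71 and 101 fragments (ratio 1.70, 1.24 to 2.33). Tet2 had 58 and 110 (1.27, 0.911 to 1.77). Mapk14, the p38 kinase, had 68 and 212 (0.775, 0.581 to 1.02), and the DNA and RNA binding Purb 49 and 146 (0.811, 0.575 to 1.13). The intervals of Max (0.564), Hdac4 (0.921) and Sirt1 (1.05) also included 1. Ppara, Ppargc1a, Esr1, Lgals9, Erbb3, Mycbp and Bmpr1b had under 10 fragments in both libraries together.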

How the data were processed

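Per the labels' protocols, a mirVana kit was used for isolation, molecules shorter than 30 bases were taken from a gel and ligated to adaptors at both ends, and 12 PCR cycles preceded Solexa sequencing. The protocols mention no molecular identifiers, so copies of 1 molecule may be counted several times. The deposited files hold counts of reads per distinct sequence, unscaled, beside the length of each sequence. How reads were trimmed and filtered is not given in the sources used here.

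Each tag from 18 to 30 nt long was compared, with no mismatch allowed, with 1178 miRNA hairpins of GENCODE M21 (GRCm38), split at the middle into 5p and 3p arms. Arms that shared their main tag were treated as 1 arm, and a tag that fitted more than 1 arm was dropped (0.273% of hairpin reads in Ia_low and 0.53% in Ia_high). Untemplated ends came from trimming up to 3 nt. Tags of 20 to 30 nt that matched transcripts of 1 protein-coding gene gave the mRNA fragments, each tag counting once, 132585 in Ia_low and 320528 in Ia_high. Intervals are exact (Clopper-Pearson), and 3 reads, the limit that a count of 0 allows, equal 1.11 CPM in Ia_low and 0.513 CPM in Ia_high. A gene with 0 fragments in 1 library was set to 3 fragments there. The named miRNAs are the nearest log2 ratios and the neighbours in rank. The named genes are the measured reported targets, of which 2 are not reported here, and the 5 highest and 5 lowest ratios among genes with an 8-mer site, 50 fragments or more and an interval that excludes 1. The members, the lists and the tests were chosen with earlier results of these data known. The matching and the intervals were tested on simulated data. Python 3.11.15, numpy 2.4.6, scipy 1.17.1 and pandas 2.3.3 were used.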

Additional observations from a re-analysis of the deposited data

Results flagged for a closer look

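Reads of the primary transcript that end exactly before the 5p arm lie outside the hairpin rule, since they begin upstream of the annotated hairpin, and exceeded the 3 reads that a count of 0 allows. There were 28 such reads in Ia_low, from 3 tags of 24 to 28 nt, and 11 in Ia_high, from 2 tags of 21 to 24 nt, 10.4 and 1.88 CPM. They are printed because they share their 3′ end. Capitals mark the bases inside the annotated hairpin, whose last printed base, at position 75463733 of chromosome 11, is next to the start of miR-22-5p.
27 nt, 11 reads in Ia_low and 0 in Ia_high: cacaccctcACCTGGCTGAGCCGCAGT
28 nt, 8 reads in Ia_low and 0 in Ia_high: ccacaccctcACCTGGCTGAGCCGCAGT
24 nt, 9 reads in Ia_low and 6 in Ia_high: accctcACCTGGCTGAGCCGCAGT
21 nt, 0 reads in Ia_low and 5 in Ia_high: ctcACCTGGCTGAGCCGCAGT
A further tag of 24 nt with 13 reads in Ia_low ended 5 nt earlier. Tags read more than once were most often read 9 times in Ia_low and 4 times in Ia_high, so these counts stand for few molecules.

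Reads with A1G, a G in place of the A at position 1 counted from the 5′ end of the 22 nt form, numbered 115 in Ia_low and 174 in Ia_high, also above the limit that a count of 0 allows. They came to 19.6 and 20.8 per 10000 reads of the 22 nt form. Over 10 other abundant miRNAs whose main tag begins with A, the same change had a median of 19.2 per 10000 in Ia_low and 15.8 in Ia_high, and 5 and 2 of them exceeded miR-22-3p.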

How the results depend on the processing

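The ratio of miR-22-3p, 1.41 as reported, was 0.776 scaled to all reads and 1.68 scaled without the 10 most abundant miRNAs. It was 1.86 centred on the median ratio, 1.32 with untemplated ends counted, 1.26 by distinct tags (7 and 11 tags) and 1.53 weighted by length. Reads of 22 nt gave 1.46 scaled to miRNA reads of that length, and 1.52 scaled to all miRNA reads. The main tag only, an alternative chosen after seeing the data, gave 1.52. The other 3 alternatives stayed within the counting interval of the reported ratio. Scaling to all reads turned its direction, since miRNA reads were a smaller share of Ia_low (log2 -0.87), and no alternative reached 2-fold. For miR-22-5p, reads of 22 nt gave no ratio, as Ia_high had none. The other 9 alternatives lay within its counting interval, but 13 and 15 reads limit what they can show.

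The tailed share of miR-22-3p was 0.942% in Ia_low and 1.12% in Ia_high with at most 1 nt trimmed, and 1.18% in Ia_high with 20 nt or more templated. Mean length was 21.87 nt in Ia_low and 21.80 nt in Ia_high with untemplated ends counted. Shares of the main start and of the 5p arm, single base differences and the host gene ratio stayed within the intervals of the reported values. The host gene ratio met the 2-fold call by reads (2.48). The median log2 ratio of genes with a seed site was -0.20 as reported and -0.19 to -0.10 under the alternatives, and that of the reported targets was -0.18 as reported and -0.33 to -0.24. Genes with a seed site called different numbered 30 as reported, 249 with any 7-mer or 8-mer site, where 1590 genes were measured in place of 179, and 57 by reads, where 11.5% of all measured genes were called higher and 20.4% lower in Ia_low. Of the 11 measured reported targets, 1 was called different, and 2 by reads, where Irf8 was added as lower. No paired analysis was possible because there was 1 library per group, and for the same reason no replicate could be left out.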

Other observations

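Single base differences were counted between the 22 nt form of miR-22-3p and reads of the same length. They came to 118 per 10000 reads in Ia_low and 119 in Ia_high, against medians of 211 and 190 over 23 miRNAs, miR-22-3p included, with 10000 reads or more of their main tag in each library. Counted as distinct tags, 60 of the 66 possible differences were seen in Ia_low and 62 in Ia_high. Changes from A to G led, with 26.4 and 30.5 per 10000, and 2 of the 23 miRNAs had more in each library. Most of these were A1G, and the other 6 A bases together had 6.82 and 9.68 per 10000. G21C, which the rule on untemplated ends also counts as an end of 2 bases, had 25 reads in Ia_low and 3 in Ia_high.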
